A study of Mus musculus with 7 samples.

Results

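The genes described here are 34 transcripts of the connective tissue that covers and enters the brain: 15 collagen chains and 19 other genes known from meningeal fibroblasts. They were chosen by name, with earlier results of these data known. All 34 symbols matched 1 gene each of the 43626 in the table. All 34 also passed the filter on low values used for testing (17670 genes passed). They were measured by RNA sequencing of whole prefrontal cortex from male C57BL/6J mice aged 8 weeks. The 4 hDISC1AA/+ libraries come from animals with 1 altered and 1 unaltered allele of the scaffold protein gene DISC1, as far as the genotype name tells, and the 3 WT libraries from animals labelled wild type. The labels do not say how the altered allele was made, how many founder lines there are, or that each library is a separate animal, so p-values measure the spread between these libraries, which may in part be technical. The study's title concerns DISC1 phosphorylation and the polarity of cortical neurons, and these genes stand outside that question.

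The meninges wrap the cortex in layers of fibroblasts, and further fibroblasts follow the larger vessels inward. These cells lay down fibrillar collagens (types I, III and V), the beaded type VI network and small leucine-rich proteoglycans that bind and space the fibrils. Type IV, XV and XVIII collagens belong to basement membranes, which in brain are also made by endothelial cells, pericytes and astrocytes. Meningeal fibroblasts further take up and release metabolites, carry insulin-like growth factor 2 and its binding proteins, and make retinoic acid. A dissected piece of cortex holds only as much of them as stays attached, and in such bulk tissue fewer cells of a type and less RNA per cell cannot be told apart.

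Promoter windows show how differently the genes of this group begin. RefSeq windows on GRCm38.p6, from 250 bases before to 50 after an annotated start, were at hand for 25 of the 34 genes (34 windows); Col1a1, Col5a2, Col12a1, Dcn, Lum, Crabp2, Mgp, Pdgfrl and Serping1 had none. The 4 shown belong to the collagen pairs whose values are set side by side later: Col1a2 and Col3a1, fibrillar chains that differed between libraries in unlike ways, and Col4a1 and Col4a2, which lie head to head. Capitals mark 5 motifs read on either strand: the letters CCAAT of the CCAAT box, TATAAA of the TATA box, GGGCGG of the GC box, TGANTCA of the AP-1 site and GTAAACA of the forkhead site.
Col1a2 (chr6:4505368-4505667, plus strand): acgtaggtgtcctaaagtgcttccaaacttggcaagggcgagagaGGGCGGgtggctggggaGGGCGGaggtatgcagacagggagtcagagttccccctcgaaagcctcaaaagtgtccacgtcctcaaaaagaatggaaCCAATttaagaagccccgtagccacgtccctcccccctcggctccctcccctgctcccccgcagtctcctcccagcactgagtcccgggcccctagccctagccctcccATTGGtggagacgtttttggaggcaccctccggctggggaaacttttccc
Col3a1 (chr1:45311288-45311587, plus strand): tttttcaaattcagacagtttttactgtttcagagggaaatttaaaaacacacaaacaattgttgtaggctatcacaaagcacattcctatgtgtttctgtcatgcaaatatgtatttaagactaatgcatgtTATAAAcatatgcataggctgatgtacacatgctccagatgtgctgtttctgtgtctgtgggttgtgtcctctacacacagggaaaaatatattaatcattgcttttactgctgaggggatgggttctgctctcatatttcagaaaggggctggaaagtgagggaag
Col4a1 (chr8:11312777-11313076, minus strand): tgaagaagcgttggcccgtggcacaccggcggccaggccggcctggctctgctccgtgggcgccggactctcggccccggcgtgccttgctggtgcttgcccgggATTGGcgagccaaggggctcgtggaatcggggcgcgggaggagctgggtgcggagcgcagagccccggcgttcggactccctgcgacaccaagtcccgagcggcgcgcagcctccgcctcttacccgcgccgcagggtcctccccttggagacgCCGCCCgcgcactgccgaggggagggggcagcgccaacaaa
Col4a2 (chr8:11312555-11312854, plus strand): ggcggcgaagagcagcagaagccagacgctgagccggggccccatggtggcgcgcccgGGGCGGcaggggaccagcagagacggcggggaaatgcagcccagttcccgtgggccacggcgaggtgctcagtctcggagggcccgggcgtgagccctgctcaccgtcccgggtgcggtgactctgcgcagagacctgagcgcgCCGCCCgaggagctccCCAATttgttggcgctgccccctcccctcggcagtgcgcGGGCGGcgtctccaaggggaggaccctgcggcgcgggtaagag
The Col1a2 window holds 2 CCAAT motifs and 2 GGGCGG motifs and is 61.0% G and C. The Col3a1 window holds 1 TATAAA motif, none of the other motifs, and is 37.7% G and C. The Col4a1 and Col4a2 windows share 78 bases, since these genes are transcribed away from each other; the Col4a1 window has 1 CCAAT and 1 GGGCGG, and the Col4a2 window 1 CCAAT and 3 GGGCGG. Across the 34 windows, GGGCGG was present in 52.9%, against 35.7% of all 32851 windows of this length in the table. CCAAT was present in 35.3% of the 34 and 37.4% of all, and TATAAA in 8.82% and 13.6%. TGANTCA was in 5.88% of the 34 windows and 7.81% of all, and GTAAACA, a forkhead motif, in 2.94% and 3.65%. A match of letters is a description of the window and not a bound site.

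Each value below is a normalized count as deposited, that is, the reads of a gene over the size factor of its library. They are listed for hDISC1AA/+ in the order replicate 1, the unnumbered library, replicate 3 and replicate 4, and for WT in the order replicate 1 to 3. The unnumbered library is a column with the hDISC1AA/+ ending whose number is in no title. Recovered totals were 33512557 to 63845254 reads, the highest in WT replicate 1. Along the first principal component of all tested genes (38.7% of the variance) WT replicate 1 stood apart at -70.4, against -17.4 to 26.3 in the other 6, and along the second (31.0%) hDISC1AA/+ replicate 1 stood apart at 66.4. A trend on GC and length took up 0.358 of the variance between genes in hDISC1AA/+ replicate 1, and 0.119 or less in each other library. Log2 differences below are therefore also given without WT replicate 1, and those that moved most also without hDISC1AA/+ replicate 1. Neuronal markers such as Snap25 and Camk2a were abundant in all 7, with the 10 listed neuronal markers together at 1.19% to 1.31% of the values.

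In length-corrected terms the group spans a wide range. Igfbp2, which encodes a carrier of insulin-like growth factors, had the highest level with a mean of 27.8 RPKM, that is, recovered reads per kilobase of exon scaled to library size (range over 7 libraries 18.4 to 37.7). Igf2, the growth factor itself, followed at 16.8 (range 12.3 to 22.2). Mgp (12.9), Col6a1 (12.1) and Islr (11.2) came next on this level scale, with ranges over the libraries of 8.51 to 19.3, 7.79 to 16.6 and 7.02 to 13.4. The ranges of these 3 overlapped each other and that of Igf2, and the range of Igf2 overlapped that of Igfbp2. The order given is therefore one of means only, and the order within each library was not compared. The lowest mean levels were those of Col6a3 (0.259), Pdgfrl (0.343) and Col13a1 (0.368). The known meningeal fibroblast genes Slc6a13, Slc13a4, Aldh1a2, Foxc1 and Foxd1 were all detected in every library, at mean levels of 4.38, 4.30, 4.98, 1.91 and 0.693.

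As a group the genes were higher in hDISC1AA/+ by direction, and no single one passed the test. Of 34 genes, 30 had a log2 difference (hDISC1AA/+ minus WT) above 0, where 47.8% of all 17670 tested genes did, and their median log2 difference was 0.27 against -0.0092 over all tested genes. With limma, 0 of the 34 had an adjusted p under 0.05 (Benjamini-Hochberg over all tested genes; 0% of all genes were called). At an unadjusted p under 0.05 there was 1 gene, Igfbp2, where 2.44% of all tested genes reached that level, and 1.14% with a higher value in hDISC1AA/+. On recovered reads edgeR and DESeq2 each also called 0 of 34 and 0 of all genes, with 1 of 34 at an unadjusted p under 0.05. At that level edgeR had 467 of its 17540 tested genes and DESeq2 604 of its 28315. For 19 of the 34 genes the 95% confidence interval of the difference lay within 2-fold in either direction.

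The direction rested on 1 library. WT replicate 1 had the lowest value of the 7 libraries in 27 of the 34 genes, where it was lowest for 24.8% of all tested genes. Without WT replicate 1, 14 of the 34 genes were higher and 20 lower (48.4% of all tested genes were higher), the median log2 difference was -0.015, and the sign turned in 16 genes. In that comparison limma again called 0 of 34 and 0% of all genes, with 0 of the 34 at an unadjusted p under 0.05 (1.57% of all tested genes, and 1.01% with a higher value in hDISC1AA/+). The interval then lay within 2-fold either way for 29 of the 34. In 23 of the 34 genes the 4 hDISC1AA/+ values spanned both remaining WT values. The share of all tested genes for which this held was not computed, so this count is a description only.

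**Figure D1:**
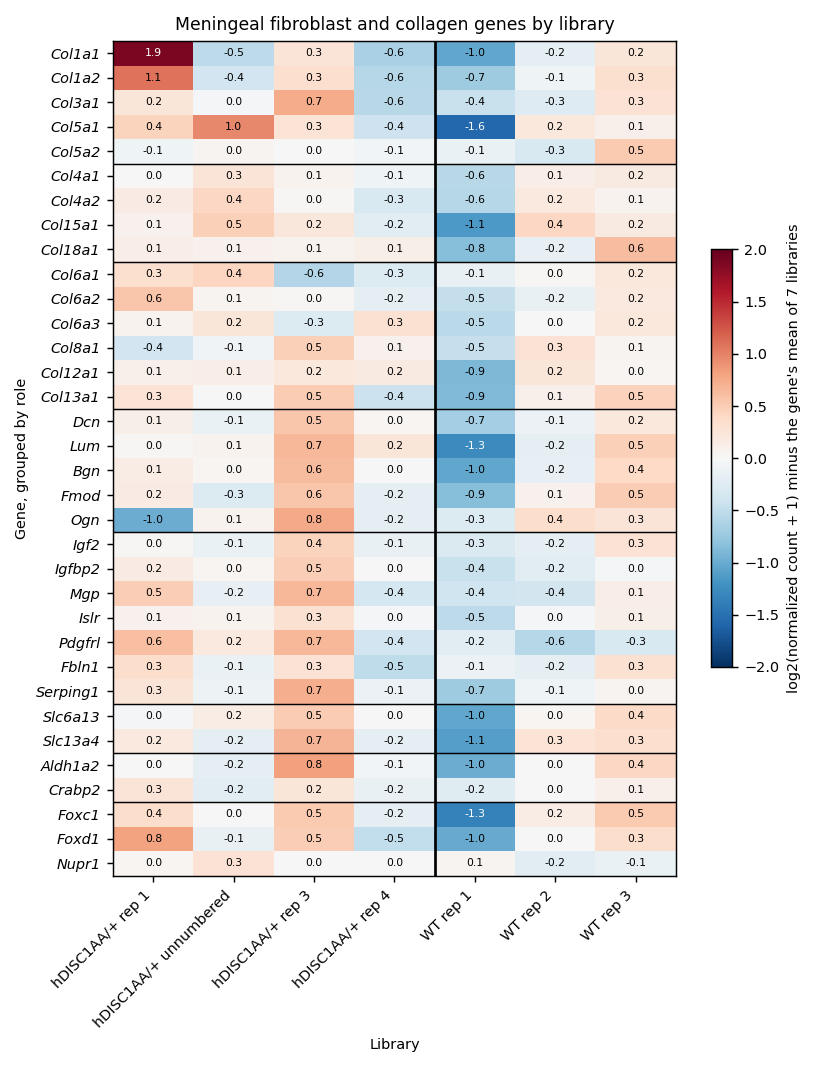
Heat map of log2(normalized count + 1) minus each gene's mean of the 7 libraries, with genes in rows grouped by role and libraries in columns, the 4 hDISC1AA/+ libraries left of the 3 WT libraries. The column of WT replicate 1 holds the lowest value of the row in 27 of the 34 genes, that of hDISC1AA/+ replicate 3 the highest in 17, and the largest deviation is Col1a1 in hDISC1AA/+ replicate 1 at 1.89.

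The whole group also differed among the hDISC1AA/+ libraries. hDISC1AA/+ replicate 3 had the highest value of the 7 libraries in 17 of the 34 genes, where it was highest for 8.72% of all tested genes. Those 17 included all 5 small leucine-rich proteins and 6 of the 7 other secreted proteins, but none of the 4 basement membrane collagens. The median deviation of the 34 genes from their mean of 7 libraries was 0.16, 0.042, 0.46 and -0.16 in hDISC1AA/+, and -0.62, -0.014 and 0.23 in WT, on the log2 scale. The pooled SD of these medians within the genotypes was 0.34, with the low WT replicate 1 included. The median log2 difference between the genotypes was 0.27. An SD of single libraries is not the error of a difference between means, so setting these values side by side is no test. Summed over the 34 genes, the normalized counts made up 0.0852%, 0.0729%, 0.0818% and 0.0598% of all values in hDISC1AA/+, and 0.0413%, 0.0656% and 0.0765% in WT.

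Type I collagen, the main fibril of the meninges, gave the largest deviation of a single library among the 34 genes, on the log2 scale. Col1a1, which encodes the alpha1 chain (chromosome 11, 94936224 to 94953042 of GRCm38, plus strand), had 2314, 433, 747 and 398 normalized counts in hDISC1AA/+, against 304, 548 and 739.9 in WT. Replicate 1 of hDISC1AA/+ stood far above every other library, and the other 3 hDISC1AA/+ values overlapped those of WT. The log2 difference was 0.57 (95% CI -0.88 to 2.02; limma adjusted p = 0.974), 0.21 when WT replicate 1 was left out and 0.022 when hDISC1AA/+ replicate 1 was. Col1a2, the alpha2 chain (chromosome 6, 4504814 to 4541544), had 2449.7, 883, 1458 and 778 in hDISC1AA/+, against 705, 1085 and 1448 in WT (log2 difference 0.27; -0.0020 with WT replicate 1 left out and -0.049 with hDISC1AA/+ replicate 1 left out). hDISC1AA/+ replicate 1 was highest for this chain too, by a smaller margin. It was highest of the 7 for 6 of the 34 genes, where it was highest for 18.6% of all tested genes. Leaving it out also moved the log2 differences of Col6a1 to -0.17, Col6a2 to 0.11, Col8a1 to 0.20, Ogn to 0.10, Crabp2 to -0.0023, Foxd1 to 0.17 and Fbln1 to -0.12, each by over 1.5 times or with a change of sign.

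The chains of type I collagen join as a pair of alpha1 with a single alpha2, and their transcripts kept a nearly fixed proportion in 6 of the 7 libraries. The ratio of Col1a1 to Col1a2 normalized counts was 0.945, 0.490, 0.513 and 0.512 in hDISC1AA/+, against 0.430, 0.505 and 0.511 in WT. Only hDISC1AA/+ replicate 1 left the range of 0.430 to 0.513 that held the other 6. This is a ratio of counts and not of molecules, since the transcripts differ in length. With the GC and length trend of each library removed, the log2 deviation of Col1a1 in hDISC1AA/+ replicate 1 was 1.67, compared with 1.89 before, and that of Col1a2 was 0.90, compared with 1.09. Col3a1, the chain of type III fibrils, was highest in hDISC1AA/+ replicate 3 and not in replicate 1, with 219, 182, 309 and 126 in hDISC1AA/+, against 136, 155 and 226 in WT (log2 difference 0.24, and 0.084 without WT replicate 1).

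**Figure D2:**
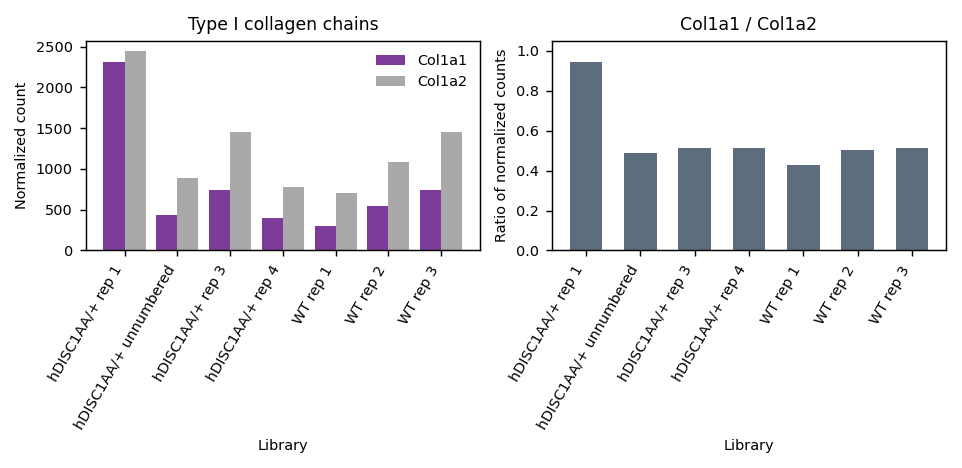
Bars give the normalized counts of Col1a1 and Col1a2 (left) and their ratio (right) in each of the 4 hDISC1AA/+ and 3 WT libraries, 1 bar per library with no error bar. The ratio stands at 0.945 in hDISC1AA/+ replicate 1 and between 0.430 and 0.513 in the other 6 libraries.

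Type I collagen is also the main product of bone, so 8 genes known from bone were looked up after these values were seen, with no test. Bglap, which encodes the bone protein osteocalcin, had 19, 0, 3 and 1 reads in hDISC1AA/+, against 0, 3 and 0 in WT, and its near-copy Bglap2 had 12, 3, 0 and 5 in hDISC1AA/+, against 0, 1 and 1 in WT. Reads could have been split between these copies by the counting. Ibsp, bone sialoprotein, had 13, 4, 1 and 7 reads in hDISC1AA/+ and 6, 5 and 7 in WT. All 3 were highest in hDISC1AA/+ replicate 1, at counts of 19 or fewer. Sp7, an osteoblast transcription factor, ran the other way, with 27, 271, 91 and 306 reads in hDISC1AA/+ and 142, 197 and 114 in WT, so that replicate 1 was lowest. Alpl, alkaline phosphatase, was highest in hDISC1AA/+ replicate 1 by a narrow margin (514, 437, 510.2 and 379 normalized counts in hDISC1AA/+, against 259, 397 and 445 in WT). Runx2 and Dmp1 were not highest there, and Mmp13 had 6 reads or fewer in every library. Sp7, Alpl, Runx2 and Dmp1 each had more reads than Bglap, Bglap2 and Ibsp in every library. Neither the cells that gave these reads nor the part of bone transcripts in the Col1a1 values was tested.

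The type V chains, which start and limit fibril growth, went separate ways. Col5a1 had 567, 815, 504 and 314 normalized counts in hDISC1AA/+, against 139, 483 and 447 in WT. The low WT replicate 1 and the high unnumbered hDISC1AA/+ library were the extremes, and the other 5 values lay between 314 and 567. Its log2 difference was the largest of the 34 at 0.74 (95% CI -0.36 to 1.83) and was 0.16 (95% CI -0.64 to 0.97) without WT replicate 1. Col5a2 had a narrow spread in hDISC1AA/+ (223, 246, 239 and 228) inside a wide one in WT (218, 192 and 344), with a log2 difference of -0.057, and -0.14 without WT replicate 1. Col5a2 and Col3a1 are neighbours on chromosome 1, 24614 bases apart, yet their count ratio (Col3a1 over Col5a2) ran from 0.550 to 1.29 over the libraries.

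Basement membrane collagens showed the low value of WT replicate 1 in all 4 chains. Col4a1 and Col4a2, the chains of the ubiquitous type IV network, start from the shared region printed above and overlap there by 22 bases. Col4a1 had 1796, 2149, 1899 and 1708 normalized counts in hDISC1AA/+, against 1230.4, 1977 and 2033 in WT, and Col4a2 had 2529, 3021, 2293 and 1831 in hDISC1AA/+, against 1519, 2593 and 2367 in WT. WT replicate 1 was lowest for both and the unnumbered hDISC1AA/+ library highest for both, while the groups overlapped. The ratio of Col4a1 to Col4a2 ranged from 0.710 to 0.933 across the 7 libraries. Log2 differences were 0.14 (95% CI -0.26 to 0.55) for Col4a1 and 0.18 (95% CI -0.31 to 0.67) for Col4a2, and -0.092 and -0.058 without WT replicate 1.

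Col18a1, the precursor of the vessel-restraining fragment endostatin, was nearly constant in hDISC1AA/+ at 189, 183, 182 and 187 normalized counts, against 95.6, 154 and 266 in WT. The WT values lay both below and above those of hDISC1AA/+. Col15a1, a related basement membrane collagen, had 207, 273, 229 and 167 in hDISC1AA/+, against 87.9, 262 and 221 in WT. Log2 differences were 0.23 for Col18a1 and 0.32 for Col15a1, and -0.13 and -0.16 without WT replicate 1. All 4 basement membrane chains were higher in hDISC1AA/+ with all libraries (median log2 difference 0.20), and 0 of the 4 were higher without WT replicate 1 (median -0.11). None passed in either comparison, by limma with adjustment over all genes.

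Of the other collagens 5 of 6 were higher in hDISC1AA/+ (median log2 difference 0.20) and 2 of 6 without WT replicate 1 (median -0.083). Type VI collagen, whose beaded filaments lie close to cells, had values of 2408, 2609, 1293 and 1601 for Col6a1, 1022, 720.4, 708 and 605 for Col6a2 and 118, 134, 93.2 and 141 for Col6a3 in hDISC1AA/+. In WT they were 1741, 1972 and 2244 for Col6a1, 495, 622 and 791 for Col6a2 and 77.7, 113 and 131 for Col6a3. Log2 differences were -0.057, 0.26 and 0.19 for Col6a1, Col6a2 and Col6a3, and -0.15, 0.095 and -0.020 without WT replicate 1. Col6a1 and Col6a2 lie 85161 bases apart on chromosome 10 and are chains of 1 protein, yet their ratio ran from 1.83 in hDISC1AA/+ replicate 3 to 3.62 in the unnumbered hDISC1AA/+ library. Col6a1 was lowest of all libraries in hDISC1AA/+ replicate 3, the library that was highest for 17 of the 34 genes. Col12a1, which links fibrils to their surroundings, was close to constant in hDISC1AA/+ at 1384, 1419, 1505 and 1462, against 692, 1539 and 1331 in WT, and its log2 difference moved to 0.011 (95% CI -0.22 to 0.25) without WT replicate 1, compared with 0.36 (95% CI -0.19 to 0.91) with it. Col8a1, of vessel walls, and Col13a1, a membrane-bound collagen, had log2 differences of 0.063 and 0.20, and of -0.15 and -0.19 without WT replicate 1.

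Small leucine-rich proteoglycans and their relatives coat collagen fibrils. Dcn, decorin, had 563, 476, 760.4 and 537 normalized counts in hDISC1AA/+, against 325, 478 and 605 in WT (log2 difference 0.34, 95% CI -0.18 to 0.86; 0.097 without WT replicate 1). Lum, lumican, which lies 46984 bases from Dcn on chromosome 10, had 102, 106, 159 and 118 in hDISC1AA/+, against 41.1, 87.3 and 141 in WT (log2 difference 0.58, 95% CI -0.29 to 1.44; 0.11 without WT replicate 1). For both, WT replicate 1 was lowest, hDISC1AA/+ replicate 3 highest, and WT replicate 3 above 3 of the 4 hDISC1AA/+ values. Bgn, biglycan, repeated this order with 776, 725, 1088 and 696 in hDISC1AA/+ and 342, 623 and 921 in WT (log2 difference 0.47, and 0.093 without WT replicate 1). Fmod, fibromodulin, which is rich in leptomeninges, had 1318, 978, 1731 and 1029.8 in hDISC1AA/+ and 649, 1253 and 1682 in WT, and its sign turned without WT replicate 1 (log2 difference 0.15 with it and -0.24 without).

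Ogn, osteoglycin or mimecan, was the exception in this family. It had 289.8, 603, 973 and 507 normalized counts in hDISC1AA/+, against 474, 736 and 685 in WT, with the lowest value in hDISC1AA/+ replicate 1 and not in WT replicate 1. Its transcript has the lowest GC content of the 34 at 36.3%, where the median of the 34 was 54.4% and that of all tested genes 49.6%. After removal of each library's GC and length trend its deviation in hDISC1AA/+ replicate 1 was 0.13, compared with -0.98 before, and its log2 difference was 0.077, compared with -0.20. Without WT replicate 1 and with no such removal, the difference of Ogn was -0.39. Dcn, with a GC content of 37.4%, deviated by 1.06 in that library after the removal and by 0.11 before. For these AT-rich transcripts the value in hDISC1AA/+ replicate 1 therefore depended on the correction.

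Among the secreted growth factors and carriers, Igfbp2 was the only one of the 34 whose groups did not overlap, which 2.2% of all tested genes showed in this direction. None of the 34 lay below WT without overlap, where 2.84% of all tested genes did. It had 2109, 1933, 2642 and 1865 normalized counts in hDISC1AA/+ (mean 2137 ± 352 SD, n = 4), against 1389, 1615 and 1856 in WT (mean 1619.9 ± 234 SD, n = 3). The lowest hDISC1AA/+ value, 1865, lay close to the highest WT value, 1856. The log2 difference was 0.40 (95% CI 0.059 to 0.73; limma adjusted p = 0.974), and 0.29 (95% CI -0.060 to 0.64) without WT replicate 1, in which case the groups still did not overlap. Igfbp2 is also made by astrocytes and choroid plexus, so its counts are not those of fibroblasts alone. With the GC and length trend removed the difference was 0.30 and its unadjusted p no longer under 0.05.

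Igf2, whose transcript also marks choroid plexus stroma and vessels, had 3610.0, 3251, 4822 and 3202 normalized counts in hDISC1AA/+, against 2893, 3129.8 and 4319 in WT (log2 difference 0.11, 95% CI -0.30 to 0.52; -0.0029 without WT replicate 1). A gene model that runs through it (Gm49394) shares its exons, so some reads may have been left uncounted or assigned to that model. Its groups overlapped. Mgp, an inhibitor of calcification, had 775, 488, 867 and 429 in hDISC1AA/+ and 414, 426 and 604 in WT, highest in hDISC1AA/+ replicates 3 and 1, with WT replicate 3 next (log2 difference 0.37, and 0.27 without WT replicate 1). Serping1, the C1 inhibitor of complement, had 411, 319.7, 571 and 319 in hDISC1AA/+ and 209, 323 and 356 in WT (log2 difference 0.44, 95% CI -0.13 to 1.02; 0.21 without WT replicate 1). Fbln1, fibulin-1, was level between the groups with 689.6, 497, 664 and 379.6 in hDISC1AA/+ and 502, 478 and 667 in WT (log2 difference -0.0017, 95% CI -0.51 to 0.50; -0.058 without WT replicate 1).

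Pdgfrl, a secreted protein that resembles a growth factor receptor, differed from the pattern of the group in that WT replicate 1 was not low. It had 58.2, 43.6, 60.7 and 28.8 normalized counts in hDISC1AA/+, against 32.7, 25.1 and 30.5 in WT, with 3 of the 4 hDISC1AA/+ values above all WT values and hDISC1AA/+ replicate 4 between them. Its log2 difference was 0.63 (95% CI -0.070 to 1.33; limma adjusted p = 0.974) and 0.71 without WT replicate 1. Counts this low have a coarse scale. Islr, a leucine-rich secreted protein of fibroblasts, had 1172, 1158, 1367 and 1079 in hDISC1AA/+ and 773, 1091 and 1195 in WT (log2 difference 0.25, and 0.059 without WT replicate 1). An exon of the neuronal gene Islr2 overlaps Islr on the same strand, so its reads cannot be ascribed to fibroblasts with certainty.

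**Figure D3:**
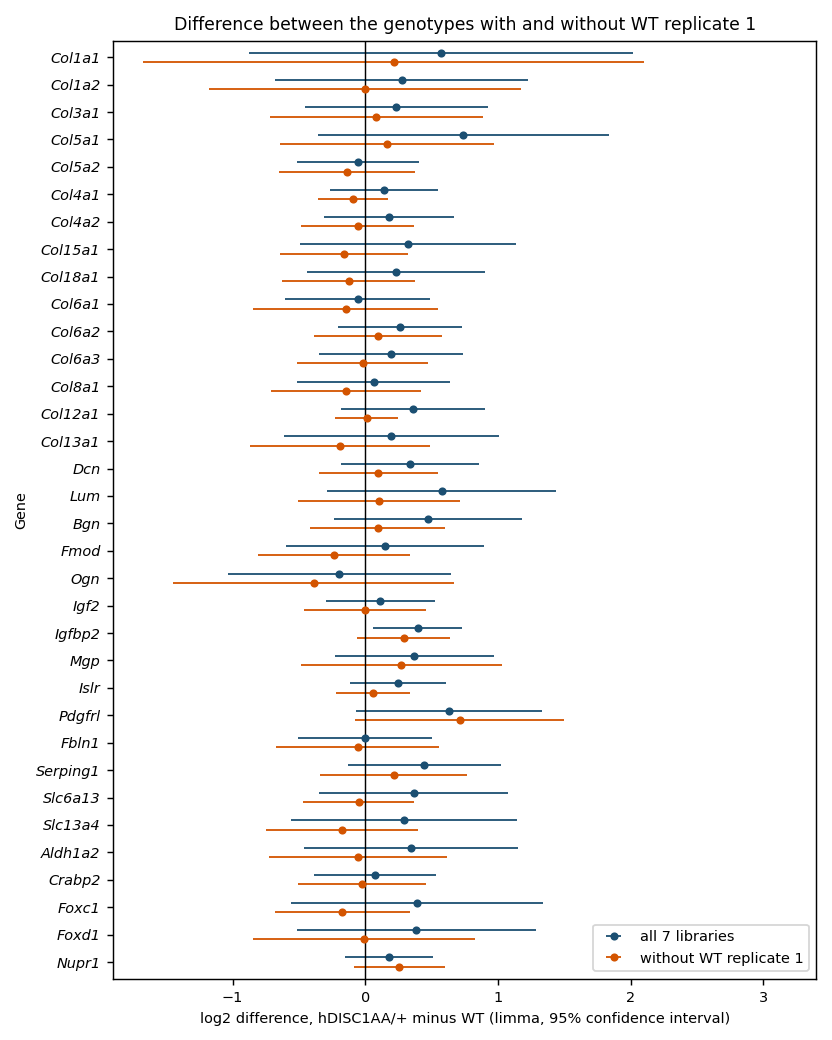
Points are log2 differences (hDISC1AA/+ minus WT) of the 34 genes from limma with all 7 libraries (blue) and without WT replicate 1 (orange), and bars their 95% confidence intervals. With all libraries 30 points lie right of 0, without WT replicate 1 14 do, and the blue bar of Igfbp2 is the only bar that leaves out 0.

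Transporters of the outer meningeal barrier showed the WT replicate 1 pattern in full. Slc6a13, the GABA transporter GAT2, had 440.0, 503, 648 and 455 normalized counts in hDISC1AA/+, against 220.1, 465 and 589.6 in WT. Slc13a4, a sulfate transporter, had 782, 595, 1098 and 606 in hDISC1AA/+, against 318, 823 and 862 in WT. WT replicate 1 lay below all other libraries for both, while the remaining WT values lay inside the range of hDISC1AA/+. Their log2 differences were 0.36 (95% CI -0.34 to 1.07) and 0.29 (95% CI -0.56 to 1.15), and -0.051 and -0.18 without WT replicate 1.

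Aldh1a2, the enzyme that makes retinoic acid in meninges, had 399, 351, 701 and 379.6 normalized counts in hDISC1AA/+, against 198, 394 and 527 in WT (log2 difference 0.35, 95% CI -0.46 to 1.15; -0.053 without WT replicate 1). hDISC1AA/+ replicate 3 was highest and WT replicate 1 lowest, and the other 5 values lay between. Crabp2, which carries retinoic acid to the nucleus, varied less, with 138, 98.6, 135 and 103 in hDISC1AA/+ and 96.9, 116 and 123 in WT (log2 difference 0.074, and -0.025 without WT replicate 1). Foxc1, a forkhead factor needed for meninges to form, had 495, 383, 555 and 336 in hDISC1AA/+, against 151, 429 and 557 in WT. Foxd1, a forkhead factor of meningeal and pericyte precursors, had 212, 109, 171 and 85.4 in hDISC1AA/+, against 59.7, 121 and 154 in WT. Both were lowest in WT replicate 1; Foxc1 was highest in WT replicate 3 and Foxd1 in hDISC1AA/+ replicate 1. Their log2 differences were 0.39 (95% CI -0.56 to 1.34) and 0.38 (95% CI -0.52 to 1.28), and -0.17 and -0.0093 without WT replicate 1.

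Nupr1, a small stress-induced regulator of chromatin, did not follow the others. It had 267, 319, 257 and 257 normalized counts in hDISC1AA/+, against 269.6, 223 and 235 in WT, where WT replicate 1 was the second highest of the 7. Without WT replicate 1 its groups did not overlap, the only gene of the 34 besides Igfbp2 of which that held (log2 difference 0.26, 95% CI -0.087 to 0.60, and 0.18 with all libraries). In that comparison 6.35% of all tested genes lay apart in that direction and 5.68% in the opposite one, which none of the 34 did, and Nupr1 did not pass by limma in either.

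Other genes of collagen biology did not pass either. Of 29 further collagen chains 26 were higher in hDISC1AA/+ (median log2 difference 0.32) and 18 without WT replicate 1 (median 0.028). Those with the smallest p were Col4a6, Col6a6 and Col26a1, with log2 differences of 0.76, 0.68 and 0.46, and of 0.31, 0.37 and 0.069 without WT replicate 1. The most abundant, Col25a1, a neuronal transmembrane collagen, had -0.19, and -0.28 without it. The 33 genes of collagen folding, processing and crosslinking were more even, with 21 higher (median 0.030) and 17 higher without WT replicate 1 (median 0.014). Among them P3h1, a prolyl hydroxylase of collagen, had 0.40 and Bmp1, which cleaves procollagen ends, 0.47, and without WT replicate 1 they had 0.28 and 0.16. Tll1, a relative of Bmp1, was lower, at -0.55 with that library and -0.50 without. Of 21 TGF-beta genes, which control collagen synthesis, 10 were higher (median -0.0040), and 8 without WT replicate 1 (median -0.044). Tgfbr1 had -0.46, Skil -0.39 and Smad4 -0.20, and -0.34, -0.25 and -0.23 without it. Of 14 measured matrix metalloproteinases and inhibitors 7 were higher (median -0.0037), and 8 without WT replicate 1 (median 0.041). All log2 differences in this paragraph had adjusted p of 0.974 or more by limma, and 0 genes of these lists passed with or without WT replicate 1.

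Markers of neighbouring cell types shared the position of WT replicate 1. The 20 other meningeal fibroblast markers had 15 higher (median log2 difference 0.15), and summed to 7515, 7720, 9534 and 7172 normalized counts in hDISC1AA/+, against 5574, 7781 and 9076 in WT. All 14 endothelial markers were higher (median 0.42), with sums of 12801, 12581, 14805 and 11790.4 in hDISC1AA/+ and 4085, 13177 and 16098 in WT; Cldn5, the tight junction protein of brain vessels, had 1282, 1215, 1157 and 1150.1 in hDISC1AA/+ and 316, 985 and 1411 in WT. Of 16 pericyte and smooth muscle markers 14 were higher (median 0.25; sums of 9618, 10079.5, 12496 and 10191 in hDISC1AA/+ and 6353, 9281 and 11964 in WT), and of 8 border macrophage markers 6 were higher (sums of 1633, 1316, 2110.0 and 1359 in hDISC1AA/+ and 1203, 1517 and 1857 in WT). Without WT replicate 1 fewer were higher: 7 of the 20 other fibroblast markers were higher (median -0.082), 4 of the 14 endothelial markers (median -0.16), 9 of the 16 pericyte and smooth muscle markers (median 0.011) and 3 of the 8 border macrophage markers (median -0.066). In each of these lists WT replicate 1 had the lowest sum, and no listed marker of them was at 0 in all libraries.

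Parenchymal glia stood opposite. All 10 oligodendrocyte, 8 astrocyte and 5 microglial markers were lower in hDISC1AA/+, with median log2 differences of -0.59, -0.25 and -0.23. Without WT replicate 1, 8 of the 10 oligodendrocyte, 5 of the 8 astrocyte and all 5 microglial markers were lower, with medians of -0.11, -0.093 and -0.12. Oligodendrocyte markers summed to 47398, 46217, 40806 and 44807 in hDISC1AA/+, against 141229, 42942 and 52764 in WT. Astrocyte markers summed to 67767, 73396, 82205 and 76188 in hDISC1AA/+, against 112657, 69415 and 84042 in WT. Microglial markers summed to 8859.5, 8275, 10088 and 9523 in hDISC1AA/+, against 12705, 9134 and 10362 in WT. WT replicate 1 had the highest sum of all 3 lists. The 10 neuronal markers differed little, with 2 higher (median -0.075), and 3 without WT replicate 1 (median -0.068). The part of tissue composition in the differences of the 34 genes was not tested, and with 1 such library in WT it cannot be told apart from genotype in the comparison of all 7.

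**Figure D4:**
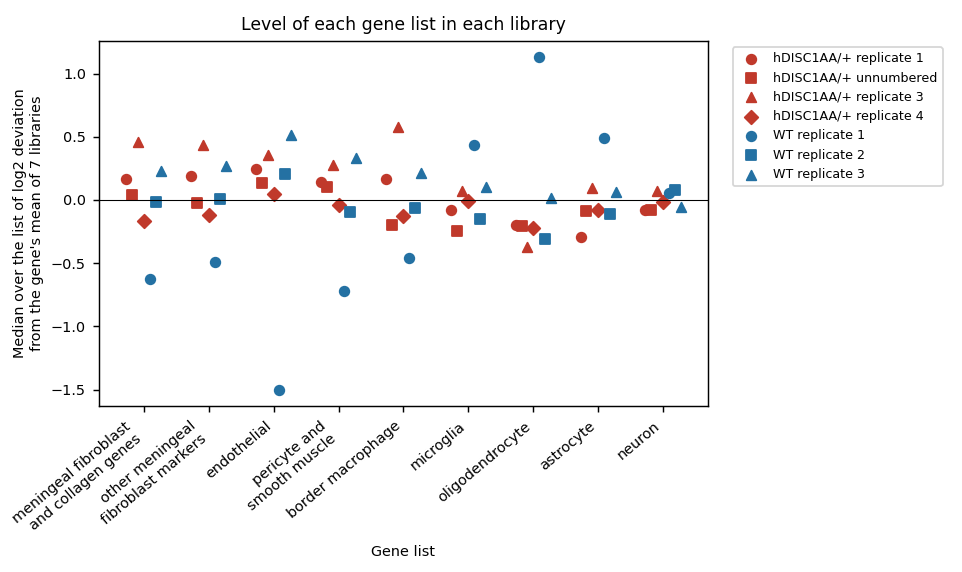
Each point is the median over a gene list of log2 deviations from the gene's mean of 7 libraries, for the 4 hDISC1AA/+ libraries (red) and 3 WT libraries (blue). WT replicate 1 lies lowest at -0.62 for the meningeal fibroblast and collagen genes, lower still for endothelial markers, and highest at 1.13 for oligodendrocyte markers.

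Choroid plexus, a further source of Igf2 and Igfbp2, was scarce. Of 12 choroid plexus epithelium markers 8 were measured and 5 of them were higher in hDISC1AA/+, or 4 without WT replicate 1; the list summed to 1274, 737, 742 and 659 normalized counts in hDISC1AA/+ and 262, 557 and 724 in WT. Ttr, transthyretin, the most abundant transcript of that epithelium, had 758, 41.5, 15.2 and 22.6 in hDISC1AA/+, against 41.1, 15.3 and 14.2 in WT. For this gene hDISC1AA/+ replicate 1 stood apart, as it did for Col1a1. Aqp1, of the same list, had its lowest hDISC1AA/+ value there (202, 492, 422 and 366, against 52.6, 300 and 457 in WT). The median log2 deviation of the 8 measured markers was 0.29, -0.068, 0.41 and -0.011 in hDISC1AA/+, and -0.48, -0.071 and 0.38 in WT. The list as a whole therefore did not set hDISC1AA/+ replicate 1 apart. Red cell transcripts varied in both groups, with sums of 18093, 11018, 4079 and 7404 in hDISC1AA/+ and 2836, 4289.8 and 17007 in WT. The part of choroid plexus or blood in the values of the 34 genes was not tested.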

How the data were processed

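Total RNA of prefrontal cortex from 4 hDISC1AA/+ and 3 WT samples was sequenced. The authors deposited 1 table of signal values per gene; the values themselves show read counts divided by 1 size factor per library, since dividing by the value of 1 read gave whole reads for 100% of values within 0.01. Per the submitters' processing notes the tools include HISAT2 2.1.0, Trimmomatic 0.39, DESeq2 1.26.0 and HTSeq 0.6.1, with the build mm10. Settings, annotation, strand and treatment of reads with several matches were not given in the sources used here. Genes were matched to GENCODE M21 (42545 of 43626); 3 genes on broken lines were left out.

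The members and lists were chosen with earlier results of these data known. Genes that reached 10 in 3 or more libraries (17670) entered the test on log2(value + 1) with limma 3.58.1 (R 4.3.3; trend and robust variance) with Benjamini-Hochberg adjustment over all of them. The fold change on this scale understates low genes. Alternatives were edgeR 4.0.16 (quasi-likelihood) and DESeq2 1.42.0 on recovered reads, other pseudocounts, filters and scalings, array weights, removal of each library's GC and length trend, and left-out libraries. The fits were tested on simulated data. No pair of libraries was a copy of another: their chi-square per degree of freedom was 10.7 or more. All 34 members are named or counted; of each other list, up to 3 with the smallest p and 2 with the highest mean were eligible to be named.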

Additional observations from a re-analysis of the deposited data

Results flagged for a closer look

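In the 4 hDISC1AA/+ libraries, 1 value each of 2 genes out of 34 lay far from the other 3, by the ratio of its gap to the group's range, past a limit that chance exceeds in about 1 in 20 groups. Aldh1a2 had 701 normalized counts in hDISC1AA/+ replicate 3 (ratio 0.863), the library that was highest for 17 of the 34 genes. Nupr1 had 319 in the unnumbered hDISC1AA/+ library (ratio 0.841). Neither gene passed the limma test with or without WT replicate 1. With 34 groups tested at that limit, 2 marked values are near the number that chance gives.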

How the results depend on the processing

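Under every alternative run, 0 of the 34 genes passed the limma, edgeR or DESeq2 threshold on adjusted p. With array weights, which count the libraries unequally, WT replicates 1 to 3 had weights of 0.244, 0.942 and 5.23. The weights in hDISC1AA/+ were 0.279, 1.23, 1.745 and 1.39 for replicate 1, the unnumbered library, replicate 3 and replicate 4. Within WT that fit leaned on WT replicate 3, and within hDISC1AA/+ it gave replicate 1 the least weight. The count of genes higher in hDISC1AA/+ (30) was 12 with array weights, 14 with both WT replicate 1 and hDISC1AA/+ replicate 1 left out, and 14 to 33 when 1 library was left out in turn, with the lowest count without WT replicate 1. Their median log2 difference then ran from -0.015 to 0.49. At an unadjusted p under 0.05 by limma there were 5 of 34 without WT replicate 3 and 2 without hDISC1AA/+ replicate 4. Of all 17670 tested genes, 520 and 474 reached that level in these fits. The count was 0 without WT replicate 1, without hDISC1AA/+ replicate 3, with both libraries left out and with the GC and length trend removed. In those fits 278, 391, 586 and 502 of all tested genes reached it.

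Signs turned as follows, on the log2 scale. Fbln1 was 0.0027 with TMM scaling, 0.018 with upper-quartile scaling, and by edgeR and DESeq2 Col6a1 0.0010 and Fbln1 0.029 and Fbln1 0.023. With the GC and length trend removed the values were Ogn 0.077 and Crabp2 -0.0088. With array weights they were Col1a1 -0.26, Col1a2 -0.31, Col3a1 -0.060, Col4a1 -0.069, Col4a2 -0.024, Col6a2 -0.11, Col6a3 -0.092, Col13a1 -0.28, Col15a1 -0.015, Col18a1 -0.36, Fmod -0.31, Igf2 -0.10, Slc6a13 -0.042, Slc13a4 -0.11, Aldh1a2 -0.052, Crabp2 -0.074, Foxc1 -0.25 and Foxd1 -0.19. With both libraries left out they were Col1a1 -0.33, Col1a2 -0.32, Col4a1 -0.070, Col4a2 -0.087, Col6a2 -0.054, Col6a3 -0.013, Col8a1 -0.010, Col13a1 -0.25, Col15a1 -0.14, Col18a1 -0.14, Fmod -0.27, Slc13a4 -0.20, Aldh1a2 -0.0069, Crabp2 -0.10, Foxc1 -0.24 and Foxd1 -0.22. Over fits without 1 library each, the ranges of the genes whose sign turned were Col1a2 -0.049 to 0.52, Col4a1 -0.092 to 0.27, Col4a2 -0.058 to 0.33, Col5a2 -0.23 to 0.19, Col6a1 -0.21 to 0.13, Col6a3 -0.020 to 0.35, Col8a1 -0.15 to 0.22, Col13a1 -0.19 to 0.48, Col15a1 -0.16 to 0.62, Col18a1 -0.13 to 0.61, Fmod -0.24 to 0.45, Ogn -0.48 to 0.10, Igf2 -0.019 to 0.29, Slc6a13 -0.051 to 0.66, Slc13a4 -0.18 to 0.54, Aldh1a2 -0.053 to 0.65, Crabp2 -0.025 to 0.16, Foxc1 -0.17 to 0.76, Foxd1 -0.0093 to 0.67, Fbln1 -0.12 to 0.17. The cause was not tested.

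Among the other lists, the median log2 difference of choroid plexus markers was 0.70 with the filter at 50, -0.074 with array weights, 0.042 with both libraries left out, and -0.019 to 0.55 over fits without 1 library. That of matrix metalloproteinases was -0.10 with array weights and -0.13 to 0.041 over such fits. With array weights pericyte and smooth muscle markers had -0.11, red cell transcripts -0.91, endothelial markers -0.19, other meningeal fibroblast markers -0.16, border macrophage markers -0.066 and collagen folding genes -0.071, each of the opposite sign to the value with equal weights. Endothelial markers ran from -0.16 to 0.82 over fits without 1 library. Oligodendrocyte markers had -0.11 with both libraries left out and -0.88 to -0.11 over fits without 1 library. The cause was not tested.

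No paired analysis was possible because the groups compared carry no replicate numbers in the labels that pair a hDISC1AA/+ library with a WT library. With 4 libraries against 3, the 95% confidence interval lay within 2-fold either way for 19 of the 34 genes. For the others it reached beyond 2-fold, so larger differences were not excluded. Counting error bears most on the genes with few reads, such as Pdgfrl and Col13a1.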
